A study of Mus musculus with 8 samples.

Results

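The genes described here are 44 cell cycle genes, taken as a named list of S phase and mitosis genes and found in all 8 count tables. They are 44 of the 20340 genes in those tables, and each had counts in these cells. The list was split into 15 S phase genes, 28 G2/M genes and Stmn1, which encodes the tubulin-binding protein stathmin and was kept apart. No measured value entered the rule, although the list was chosen with earlier results of these data known. Each library is a suspension of single brain cells from 1 hemisphere of male C57BL/6J mice aged 8 to 9 weeks, profiled by droplet 3′ RNA sequencing with unique molecular identifiers (UMIs). The mice carried Prdx1+/+ (labelled WT) or Prdx1-/-, the null genotype of the gene for the peroxide-reducing enzyme peroxiredoxin 1, and had a 60 min suture occlusion of the middle cerebral artery followed by reperfusion. The hemisphere on the occluded side (ipsilateral) or the opposite side (contralateral) was taken at 24 h or 48 h, with 1 library for each of the 8 combinations. Every mouse had the occlusion, so the contralateral hemisphere is not a sham control. The labels do not say how many mice went into a library. The cells were passed over Percoll to remove myelin and sorted as live cells, which leaves mostly blood-derived cells and microglia.

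A dividing cell copies its DNA in S phase and separates the copies in mitosis. For the first step it loads the MCM helicase on replication origins, clamps polymerases to DNA with PCNA and makes nucleotides with ribonucleotide reductase, thymidylate synthase and thymidine kinase. For the second it switches on cyclin B with CDK1, builds a spindle with kinesins and Aurora kinases, and later destroys cyclins and securin through CDC20 and UBE2C. Many S phase genes are driven by E2F factors, and many mitosis genes by the DREAM and MYB-MuvB-FOXM1 complexes, which bind a short element named CHR beside CCAAT boxes. Microglia, the resident macrophages of the brain, seldom divide in the healthy adult and are known to multiply after ischaemia.

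The promoters of both groups are shown first, and any link between their letters and the levels below was not tested. RefSeq promoter windows on GRCm38.p6 (250 bases before to 50 after the start) matched 38 of the 44 genes. Mcm4, Gins2, Ccna2, Aurkb, Tpx2 and Stmn1 had no entry. The letters TTTGAA, on either strand, occurred in 18 of 25 G2/M windows (72.0%), in 1 of 13 S phase windows (7.69%) and in 20.2% of the windows of all 27025 genes. With the other CHR form, TTTAAA, counted too, the shares were 21 of 25 (84.0%), 5 of 13 (38.5%) and 30.6%, so S phase windows held either form somewhat more often than all genes did. TTTGAA together with CCAAT, also on either strand, occurred in 18 of 25 and 1 of 13, and in 7.97% of all genes. E2F-type letters (TTTGGCGC, TTTCCCGC, TTTCGCGC or TTTGCCGC, either strand) went the other way, with 7 of 13 S phase windows (53.8%), 1 of 25 G2/M windows (4.0%, Cdk1) and 2.60% of all genes. A match is only a run of letters and was not tied to any measurement of binding. Below, 5 stretches of 160 bases upstream of the gene are printed in the direction of transcription. Those of Cdk1 and Top2a end directly at the annotated gene, and those of Mcm5, Mcm6 and Mki67 some bases before it. Letters of all 3 kinds are in capitals on whichever strand they occurred. The stretches were picked after the matches were seen, from genes whose values follow. Adjoining capitals can be overlapping matches.
Mcm5, chr8:75109349-75109508, plus strand: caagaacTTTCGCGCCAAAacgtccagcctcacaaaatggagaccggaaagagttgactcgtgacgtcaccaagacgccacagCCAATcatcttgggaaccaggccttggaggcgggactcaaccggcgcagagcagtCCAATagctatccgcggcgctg
Mcm6, chr1:128359706-128359865, minus strand: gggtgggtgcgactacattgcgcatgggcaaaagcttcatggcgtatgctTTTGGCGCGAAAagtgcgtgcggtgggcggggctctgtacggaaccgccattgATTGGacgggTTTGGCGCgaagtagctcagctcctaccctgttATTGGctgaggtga
Cdk1, chr10:69352939-69353098, minus strand: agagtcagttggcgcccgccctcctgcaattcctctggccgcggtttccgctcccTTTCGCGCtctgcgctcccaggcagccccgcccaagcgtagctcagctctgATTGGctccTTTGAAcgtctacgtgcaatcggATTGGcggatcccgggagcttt
Mki67, chr7:135716380-135716539, minus strand: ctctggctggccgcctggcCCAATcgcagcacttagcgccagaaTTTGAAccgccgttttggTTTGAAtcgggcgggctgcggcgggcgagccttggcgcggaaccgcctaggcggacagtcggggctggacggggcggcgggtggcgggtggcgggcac
Top2a, chr11:99024190-99024349, minus strand: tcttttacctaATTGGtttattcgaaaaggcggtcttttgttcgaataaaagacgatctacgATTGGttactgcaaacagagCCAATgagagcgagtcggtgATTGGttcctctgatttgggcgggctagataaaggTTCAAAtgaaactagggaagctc
Mcm5 and Mcm6, helicase subunits, show E2F-type letters and CCAAT. Cdk1, the mitotic kinase, shows all 3 kinds. Mki67, which coats mitotic chromosomes, and Top2a, which untangles the copied DNA, show TTTGAA and CCAAT without E2F-type letters in these stretches.

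The 8 libraries held 4189 to 5759 cells and 39433266 to 70111421 UMIs. Prdx1 itself stood at 276, 498, 102 and 441 UMIs per 1000000 (CPM) at 24 h and at 421, 971, 6.27 and 7.54 CPM at 48 h. Here and below, values at each time come in 1 order, the contralateral and then the ipsilateral WT library, followed by the contralateral and then the ipsilateral Prdx1-/- library. Prdx1 was thus near 0 in the libraries labelled Prdx1-/- at 48 h but present in those labelled Prdx1-/- at 24 h, so genotype below means the label. Cells were given a class by a gate on marker genes, none of which is a cell cycle member. A class therefore is a range of marker scores, not a clustered cell type. The gate gave 20803 microglia-like, 6789 monocyte/macrophage-like, 5866 neutrophil-like, 691 T and NK-like and 770 B-like cells, and left 3695 of 39608 cells ungated. Of the microglia-like cells, 885 lay near the edge of the gate, and their class as a whole had a median of 199 microglia marker UMIs and 0.0 monocyte/macrophage marker UMIs per 10000. The 2 times also differ in anything else that differed between the preparations of 24 h and 48 h libraries. The 2 effects cannot be told apart, and p-values below measure the spread between single libraries.

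In microglia-like cells, all 44 genes were higher at 48 h than at 24 h in the fit over the 8 libraries. In that fit 7.41% of the 13659 genes tested rose (quasi-likelihood test of edgeR, called at a Benjamini-Hochberg adjusted p under 0.05). The G2/M genes moved by a median of 4.71 on the log2 scale and the S phase genes by 1.62, against -0.03 for all genes. All 28 G2/M genes, and 13 of 15 S phase genes, had every 48 h library above every 24 h library. The exceptions were the helicase subunit Mcm4 and the chromatin remodeller Hells. The share of all genes with such a separation was not counted, so these counts describe the members only. Leaving out any 1 library kept 35 to 43 of the 44 called. The share of all genes called in those fits is not given, so these counts too describe the members only.

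**Figure D1:**
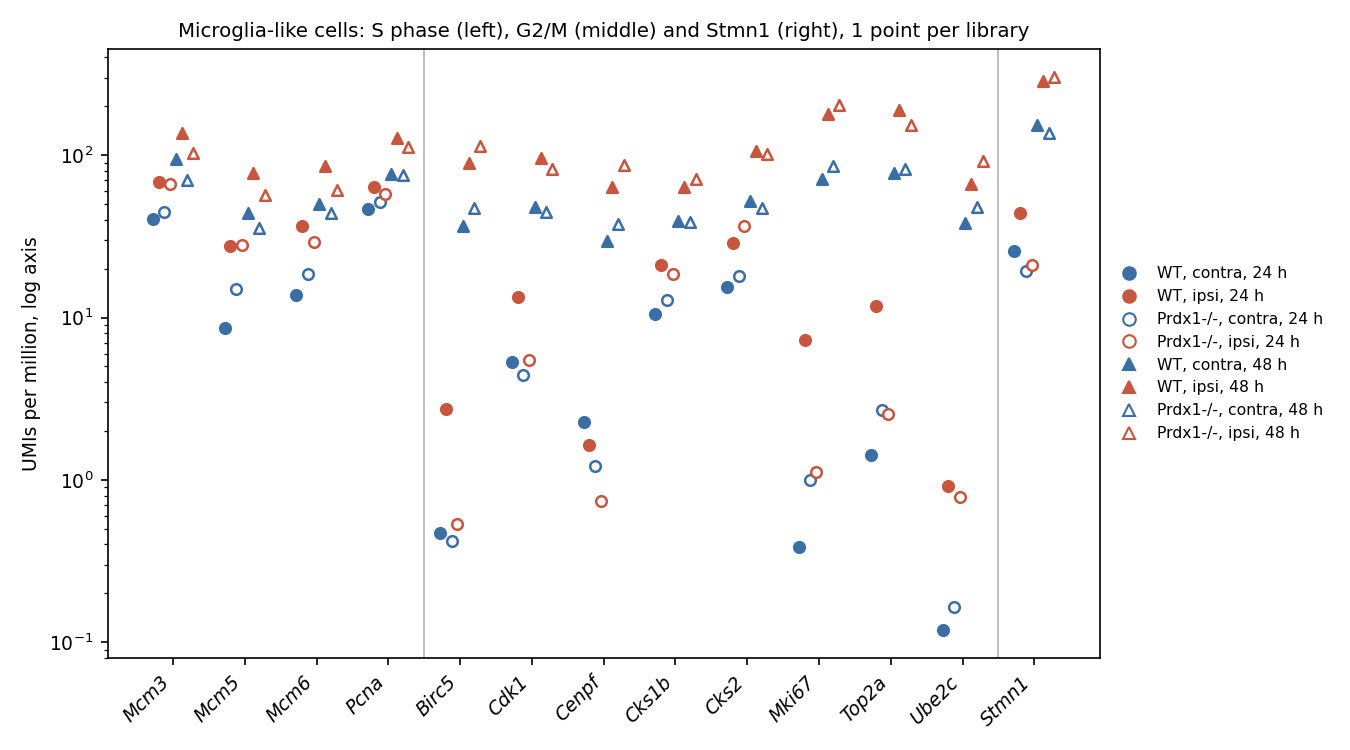
Level of the named S phase genes, G2/M genes and Stmn1 in microglia-like cells, as CPM on a log axis, with 1 point for each of the 8 libraries (circles 24 h, triangles 48 h, blue contralateral, red ipsilateral, filled WT, open Prdx1-/-). The triangles lie above the circles in every gene shown, narrowly for Mcm3 and Pcna and by more than a decade for Ube2c and Birc5.

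Among the S phase genes, the helicase subunits and the clamp moved least. Mcm3 read 40.3, 68.0, 44.4 and 66.4 CPM at 24 h and 95.1, 136, 70.2 and 103 at 48 h, so its log2 change was 0.83 with a standard error (SE) of 0.13 (edgeR adjusted p = 0.00442; the sign ± stands for the SE below). Mcm6 read 13.8, 36.8, 18.5 and 29.1 CPM, then 50.4, 86.3, 44.1 and 61.2 (log2 1.29 ± 0.18, edgeR adjusted p = 0.00564). The sliding clamp gene Pcna had the smallest change of the S phase genes, from 46.6, 64.0, 51.8 and 57.6 CPM to 76.1, 128, 75.7 and 113 (0.75 ± 0.09, edgeR adjusted p = 0.000486). In each of these genes the lowest 48 h library was contralateral and lay close above the highest 24 h library, which was ipsilateral. Of the genes for making nucleotides, Rrm2 and Tk1 moved much more, and Tyms and Rrm1 far less than Rrm2 and Tk1. Tyms, thymidylate synthase, read 12.2 to 19.6 CPM over the 24 h libraries and 36.3 to 61.95 over the 48 h libraries. Rrm1, also of ribonucleotide reductase, read 13.3 to 18.1 CPM, then 34.3 to 69.9. Rrm2, the regulated subunit of ribonucleotide reductase, stood at 0.384, 6.77, 0.421 and 0.536 CPM at 24 h and at 17.1, 48.2, 15.6 and 43.6 at 48 h (log2 4.27 ± 0.69, edgeR adjusted p = 0.026). Tk1, thymidine kinase, stood at 1.21, 2.53, 1.64 and 0.907 CPM, then at 21.0, 44.8, 19.2 and 44.2 (4.17 ± 0.29, edgeR adjusted p = 0.000254). Rrm2 at 24 h was high in 1 library only, the ipsilateral WT one.

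Among the G2/M genes, the folds were smaller for the kinase Cdk1 and its small partner proteins than for the mitosis genes named after them. Cdk1 read 5.31, 13.4, 4.40 and 5.44 CPM at 24 h and 47.7, 96.5, 44.8 and 82.2 at 48 h (log2 3.22 ± 0.17, edgeR adjusted p = 2.5e-05). The CDK-binding subunit genes Cks1b (1.70 ± 0.09, adjusted p = 2.29e-06) and Cks2 (1.57 ± 0.10, adjusted p = 1.42e-05), in the same edgeR fit, had the smallest folds of the 28. Cks2 read 15.3, 28.9, 18.0 and 36.5 CPM, then 52.1, 106, 47.5 and 102. Mki67 read 0.384, 7.23, 1.01 and 1.11 CPM at 24 h and 71.9, 180.1, 85.7 and 203 at 48 h (5.92 ± 0.65, edgeR adjusted p = 0.011). Top2a read 1.42, 11.7, 2.69 and 2.56 CPM, then 78.2, 189.8, 81.7 and 154 (4.84 ± 0.51, edgeR adjusted p = 0.0085). In both genes the ipsilateral WT library was the highest at 24 h, and the ipsilateral libraries were the highest at 48 h. Birc5, survivin of the chromosomal passenger complex, went from 0.472, 2.75, 0.421 and 0.536 CPM to 36.7, 89.4, 47.5 and 114 (6.06 ± 0.42, edgeR adjusted p = 0.0013). The largest fold belonged to Ube2c, the ubiquitin-conjugating enzyme that marks mitotic cyclins for destruction, with 0.118, 0.915, 0.164 and 0.783 CPM before 38.1, 66.5, 47.7 and 91.9 (6.98 ± 0.27, edgeR adjusted p = 1.15e-05). Its 24 h levels rest on 60 UMIs in all, so the size of that fold is loosely fixed.

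Stmn1 read 25.8, 44.1, 19.5 and 21.2 CPM at 24 h and 153.9, 285, 137 and 304 at 48 h (log2 2.91 ± 0.19, edgeR adjusted p = 0.000125). It lay between the S phase and G2/M medians. Summed, the 28 G2/M genes made up 59.9, 137.5, 62.1 and 93.3 CPM at 24 h and 713, 1543, 820 and 1759 at 48 h. The 15 S phase genes made up 184, 363, 215.0 and 304 CPM, then 553, 951, 466 and 756. The ratio of S phase to G2/M UMIs went from 3.07, 2.64, 3.46 and 3.26 at 24 h to 0.775, 0.617, 0.568 and 0.430 at 48 h. Capture differs between genes, so the ratio carries meaning only between libraries. It was lower in every 48 h library than in every 24 h library.

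Split by hemisphere, the rise with time was seen on both sides for G2/M genes. Contralaterally 25 of 28 G2/M genes, 8 of 15 S phase genes and Stmn1 rose (4.57% of all genes did), and ipsilaterally 28 of 28, 6 of 15 and Stmn1 (6.36% of all genes). Of the genes that miss the threshold contralaterally, Mki67 had a log2 fold change of 6.73 with an adjusted p of 0.0634 (edgeR). The S phase genes that miss it on both sides were Mcm2, Mcm3, Mcm4, Mcm5, Rrm2, Uhrf1 and Hells. In the fit over both sides, Mki67 lost its call without the contralateral Prdx1-/- library of 24 h (edgeR adjusted p = 0.0582).

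**Figure D2:**
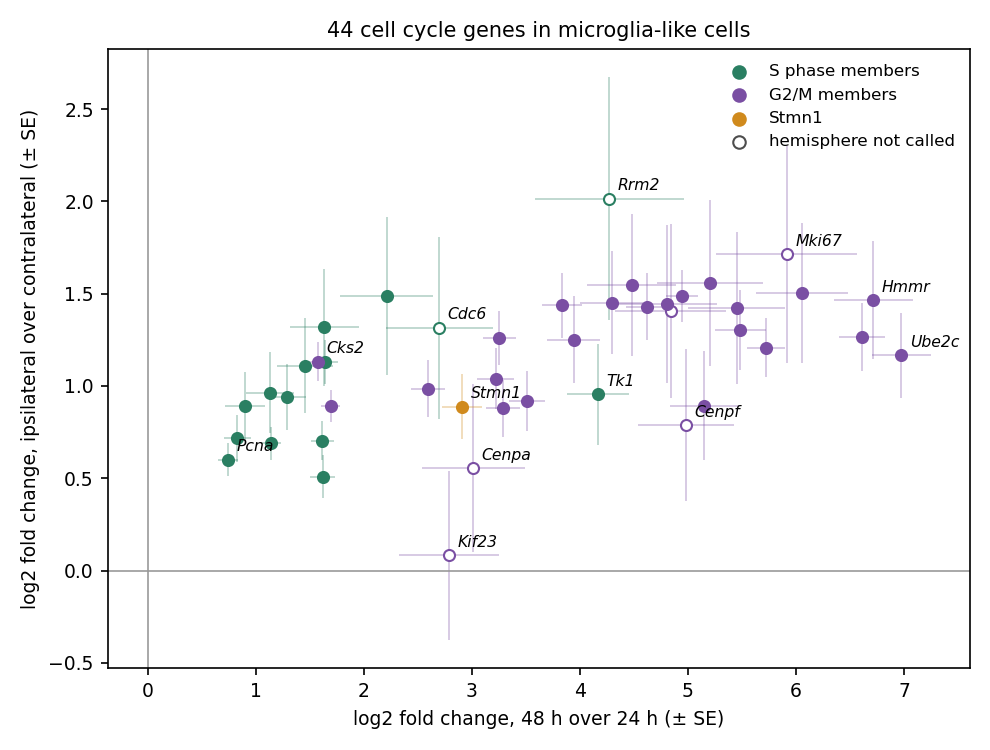
Log2 fold change of each of the 44 genes in microglia-like cells for 48 h over 24 h (horizontal) and ipsilateral over contralateral (vertical), with standard errors from the same fit of 8 libraries. Points are coloured by phase, and open points did not pass the hemisphere test. All 44 lie to the right of 0, G2/M genes farther than S phase genes, and Kif23 (0.08) lies at 0 on the vertical axis.

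The ipsilateral hemisphere was higher than the contralateral one for 37 of the 44 genes in microglia-like cells, 13 of 15 S phase genes, 23 of 28 G2/M genes and Stmn1, and none was lower. Of all genes 21.9% were called higher, so ipsilateral increases were common in these cells. The median log2 fold changes were 0.96 for S phase and 1.26 for G2/M genes, and -0.0042 for all genes. The difference is paired: within each time and genotype label most genes were higher ipsilaterally in 4 of 4 pairs. The 4 ipsilateral and 4 contralateral libraries, each holding both times, overlapped for every gene. Cks2 (log2 1.13 ± 0.10, edgeR adjusted p = 8.45e-05) and Cks1b (0.89 ± 0.09, adjusted p = 9.28e-05) had the smallest p-values. Cdk1 rose by 1.04 ± 0.16 (adjusted p = 0.00219), Mcm3 by 0.72 ± 0.13 (adjusted p = 0.0027) and Pcna by 0.60 ± 0.09 (adjusted p = 0.000731) in the same edgeR fit. Among the helicase subunits, Mcm5 rose by 1.11 ± 0.26 and Mcm6 by 0.94 ± 0.18. Of the mitosis genes, Cdca8, a partner of Aurora B, rose by 1.44 ± 0.17, the spindle protein genes Hmmr by 1.46 ± 0.32 and Prc1 by 1.30 ± 0.22, Birc5 by 1.50 ± 0.38 and Ube2c by 1.17 ± 0.23. The largest called value was 1.56 ± 0.45 for Ccnb1, cyclin B1 (adjusted p = 0.0405, edgeR), and the smallest 0.51 ± 0.12 for Tyms, thymidylate synthase, higher in 3 of 4 pairs. Stmn1 rose by 0.89 ± 0.18 (adjusted p = 0.00723, edgeR).

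The 7 genes not called were the licensing factor Cdc6 (log2 1.32, adjusted p = 0.0672), Rrm2 (2.01, 0.0673), Mki67 (1.71, 0.0787), Top2a (1.41, 0.0727), the kinetochore proteins Cenpf (0.79, 0.187) and Cenpa (0.55, 0.382), and Kif23 (0.08, 0.899), all edgeR. Rrm2, Mki67 and Top2a thus had larger estimates than most called genes and more spread between libraries. With a hemisphere by time term in the fit of 8 libraries, the ipsilateral side at 24 h was called higher for 10 S phase and 15 G2/M genes (21.5% of all genes), and 1 G2/M gene was lower (17.9% of all genes). At 48 h in that fit it was higher for 6 S phase genes, 15 G2/M genes and Stmn1 (9.58% of all genes). Separate fits of the 4 libraries of each time called 17 members higher and 1 lower at 24 h (48.8% of all genes in either direction) and 44 higher at 48 h (28.1%). The 24 h fit could test 15 S phase genes, 24 G2/M genes and Stmn1, and its calls among them were not above the share of all genes. With cells limited to 5% instead of 10% mitochondrial UMIs, 24 of the 44 were called by hemisphere (38.7% of all genes in either direction), and Birc5, Ccnb1, Hmmr, Tyms and Ube2c were not among them. Leaving out 1 library at a time kept 28 to 35 called, without the share of all genes called in those fits being given. Birc5 (edgeR adjusted p from 0.0808 to 0.121) and Ccnb1 (0.0993 to 0.169) lost the call without any of 4 libraries, contralateral WT or Prdx1-/- of 24 h, contralateral WT of 48 h or ipsilateral Prdx1-/- of 48 h. Hmmr lost it without the last 2 of these (0.0558 and 0.0785). Mcm5 lost it without the ipsilateral WT library of 24 h (0.0596) or 48 h (0.053) or the ipsilateral Prdx1-/- library of 24 h (0.0736). In the same libraries, 8 of 12 monocyte/macrophage markers were higher ipsilaterally in 4 of 4 pairs in the microglia-like sums. That list summed to 64.3 to 233 CPM contralaterally and 235 to 571 CPM ipsilaterally, the 12 microglia markers to 16675 to 24978 and 10921 to 13130 CPM, and no monocyte/macrophage marker was at 0 in every library. The part of these differences in the result was not tested.

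Kif23, the kinesin of the midbody in late cell division, was the 1 member called for a hemisphere difference that changed with time. It read 3.90, 1.50, 3.34 and 1.44 CPM at 24 h and 13.4, 22.5, 13.9 and 27.0 at 48 h. Both ipsilateral libraries were below both contralateral ones at 24 h (log2 -1.13 ± 0.17, adjusted p = 0.000908) and above them at 48 h (0.93 ± 0.14, adjusted p = 0.00242), in edgeR. The hemisphere by time term was 2.07 ± 0.22 (edgeR adjusted p = 0.0155), where 5 of 13659 genes (0.0366%) passed. Among the other cell cycle genes tested, Cdkn2c, a CDK4/6 inhibitor, gave the same adjusted p with 1.91 ± 0.20, from 8.71, 3.97, 6.06 and 3.30 CPM to 15.7, 33.4, 17.1 and 31.7. The Kif23 term lost its call without the ipsilateral WT library of 48 h (adjusted p = 0.12), without the ipsilateral Prdx1-/- library of 48 h (0.152) and at the 5% mitochondrial limit (0.123). Ube2c had the largest term of opposite sign among the 3 members with the smallest p (-1.78 ± 0.33, adjusted p = 0.0945), and Stmn1 read 0.45 ± 0.35. Cdkn2c lost its call in the same 3 settings (adjusted p = 0.131, 0.159 and 0.123). Cenpf was also lower ipsilaterally in each pair at 24 h and higher at 48 h, without a call for the term. It read 2.27, 1.65, 1.22 and 0.742 CPM, then 29.5, 63.9, 37.8 and 86.8. Which members pass the hemisphere by time term depends on single libraries, of 48 h as given for Kif23 and also of 24 h. Without the contralateral Prdx1-/- one, 6 passed (1.22% of all genes), Kif23 (2.16) and the S phase genes Mcm2 (-1.15), Mcm5 (-1.20), Mcm6 (-0.92), Hells (-1.64) and Uhrf1 (-2.25). Without the ipsilateral Prdx1-/- one, 6 passed (0.399% of all genes), Kif23 (2.10), Rrm2 (-2.49) and the G2/M genes Birc5 (-1.51), Ccna2 (-1.95), Hmmr (-2.17) and Ube2c (-1.96).

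By genotype label, 0 of the 44 genes and 0.0% of all genes were called in microglia-like cells by edgeR, where 1416 of 13659 genes had an unadjusted p under 0.05. DESeq2 called 1 member (0.937% of all genes), Ccnb2, cyclin B2, whose log2 value in edgeR was 0.79 ± 0.16 (adjusted p = 0.137). Ccnb2 read 0.177, 0.488, 0.327 and 0.701 CPM at 24 h and 12.1, 20.0, 17.4 and 46.8 at 48 h, higher with the Prdx1-/- label in 4 of 4 pairs. Its 24 h levels rest on only 6, 16, 14 and 17 UMIs, so the pairs of 24 h are loosely fixed. Mcm7 (-0.32 ± 0.09, adjusted p = 0.254) and Cdk1 (-0.43 ± 0.16, adjusted p = 0.432) were lower in 4 of 4. The hemisphere by genotype label term was called for 0 members and 0.0% of all genes, with 216 genes at an unadjusted p under 0.05. At 48 h, where Prdx1 followed the labels, a fit of those 4 libraries alone called 8 members against 2.19% of all genes. All 15 S phase estimates were then below 0 (median log2 -0.37), and 22 of 28 G2/M estimates above 0 (median 0.17). The called genes were Mcm3 (-0.47), Mcm4 (-0.49), Mcm5 (-0.42), Mcm7 (-0.47) and Hells (-0.59) on the lower side and Cdc20 (0.60), Cenpa (0.67) and Ccnb1 (0.54) on the higher side. Cenpa read 24.3, 43.4, 37.2 and 78.5 CPM there, with each Prdx1-/- library above its WT partner. In that fit 2 libraries stand on each side. The ipsilateral libraries alone called Ccnb2 (1.10), Uhrf1 (-0.68) and Hells (-0.56) by label (1.56% of all genes). Without the contralateral WT library of 24 h, the fit over both times called Hells (-0.60, edgeR adjusted p = 0.036) and 0.223% of all genes. Without the contralateral WT library of 48 h, the hemisphere by genotype label term was called for Uhrf1 (-2.14) and Hells (-1.45) and for 0.12% of all genes.

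To ask how many cells carry the signal, each cell was thinned to 3000 UMIs and counted when it held at least 3 different G2/M genes, or at least 3 different S phase genes. Shares over microglia-like cells with 3 G2/M genes were 0.0235, 1.11, 0.0628 and 0.267% at 24 h, then 5.21, 19.8, 5.38 and 20.6% at 48 h. The exact 95% intervals for the ipsilateral libraries of 48 h were 16.6 to 23.2% and 16.9 to 24.8%, and those of the contralateral ones 4.46 to 6.05% and 4.60 to 6.25%. These intervals cover counting error only. At 24 h, 1 of 4258 contralateral WT cells and 29 of 2606 ipsilateral WT cells qualified. Shares with 3 S phase genes were 1.55, 7.41, 2.20 and 5.93% at 24 h, then 12.2, 26.7, 8.56 and 20.9% at 48 h.

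Every 48 h share lay above every 24 h share in both phases. The mean G2/M share was 0.366% ± 0.509 (SD, n = 4 libraries) at 24 h and 12.7% ± 8.61 at 48 h (two-sided exact permutation p = 0.0286, the smallest 4 against 4 can give, 0.343 after adjustment over 24 tests). Ipsilateral shares were higher in 4 of 4 pairs, but the exact permutation test, which ignores the pairs, gave p = 0.286 for G2/M and 0.229 for S phase genes. For genotype label the same exact permutation test gave p = 0.914 and 0.686. Without thinning the G2/M shares were 0.838, 9.28, 1.45 and 7.44% at 24 h, then 11.7, 33.2, 9.90 and 35.2% at 48 h. Ipsilateral microglia-like cells are deeper (median 11188 to 12982 UMIs against 7183 to 8011), which thinning removes.

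**Figure D3:**
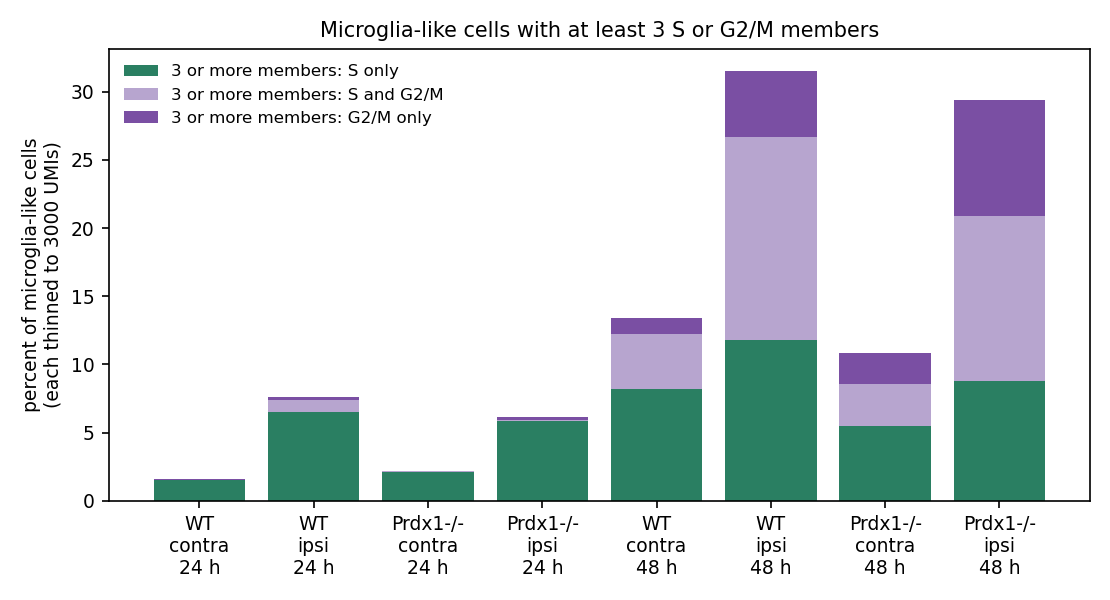
Percent of microglia-like cells with at least 3 S phase genes only, with both kinds, and with at least 3 G2/M genes only, in each of the 8 libraries after thinning every cell to 3000 UMIs. The S only part is the largest of every 24 h bar, and cells with G2/M genes make up 5.21 to 20.6% in the 48 h libraries.

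At 24 h the cells that qualified held S phase genes and few G2/M genes. S only, both and G2/M only cells numbered 66, 0 and 1 in the contralateral WT library, 169, 24 and 5 in the ipsilateral WT library, 102, 3 and 0 in the contralateral Prdx1-/- library, and 110, 1 and 4 in the ipsilateral Prdx1-/- library. At 48 h the same counts were 256, 127 and 36, then 68, 86 and 28, then 163, 93 and 68, and 37, 51 and 36. Over all libraries, 385 of the 563 cells with G2/M genes also held S phase genes. Cells with 3 G2/M genes were larger libraries before thinning, with a median of 21905 UMIs against 8207 in the others.

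The genes differ in how far their UMIs sit in those few cells. Cells with at least 3 other G2/M genes made up under 3% of microglia-like cells and held 97.8% of Hmmr, 97.6% of Nusap1, 96.6% of Ube2c, 94.1% of Plk1, 92.3% of Mki67 and 87.3% of Top2a UMIs. The kinases Cdk1 (67.9%) and the late kinesin Kif23 (69.2%) were less concentrated. Of S phase genes, Rrm2 (88.4%) and Tk1 (74.2%) were held much like mitosis genes, while Mcm3 (16.9%), Mcm4 (16.9%) and Pcna (16.8%) were mostly in other cells. Cks1b (39.6%) and Cks2 (36.6%) stood apart from the rest of the G2/M list, and Stmn1 was at 58.4%. These cells were defined by G2/M genes, so the values describe and test nothing.

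**Figure D4:**
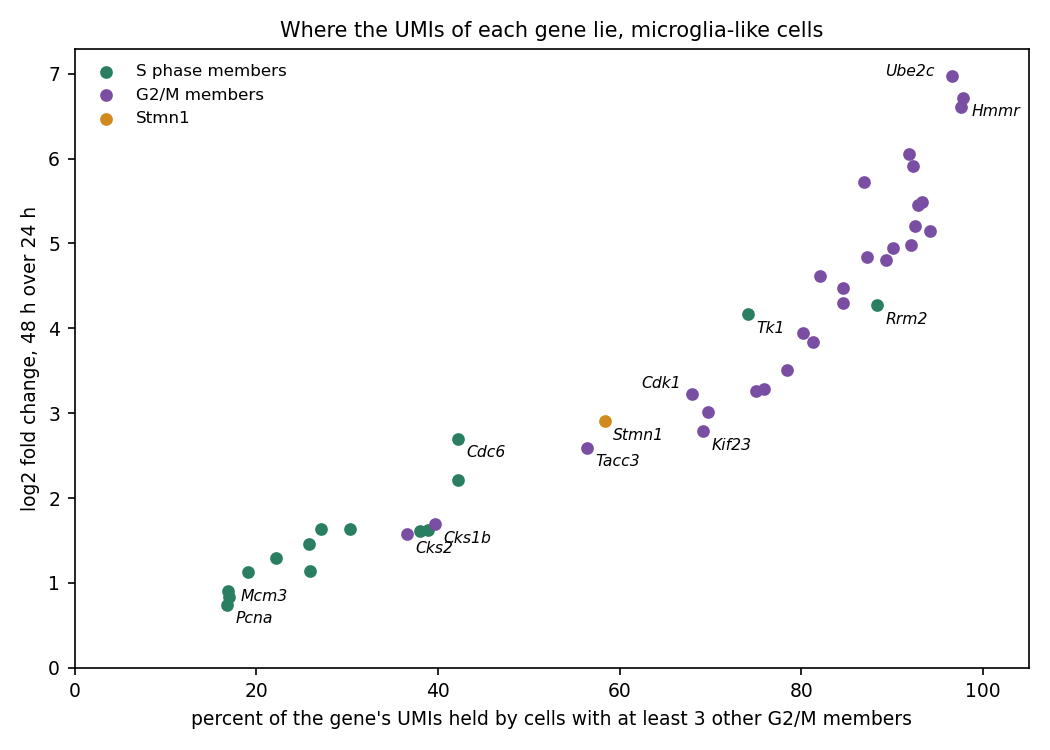
For each of the 44 genes, the percent of its UMIs in microglia-like cells that lie in cells with at least 3 other G2/M genes (horizontal) and its log2 fold change at 48 h over 24 h (vertical), coloured by phase. Genes held almost wholly by those cells, such as Hmmr (97.8%) and Ube2c (96.6%), lie at the top right, and Pcna (16.8%) and Mcm3 (16.9%) at the bottom left.

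In the remaining microglia-like cells, with fewer than 3 G2/M genes, S phase genes still summed to 184, 326, 212 and 302 CPM at 24 h and 399, 546, 319 and 473 at 48 h. G2/M genes summed to 59.8, 97.7, 59.2 and 89.1 CPM, then 118, 183, 99.2 and 197. The 24 h and 48 h ranges overlapped for S phase and did not for G2/M genes. Mcm3 in these cells read 40.1, 63.5, 44.3 and 66.2 CPM, then 82.0, 98.4, 59.0 and 85.0, and each ipsilateral library stayed above its contralateral partner. In the cells with G2/M genes at 48 h, G2/M sums were 5212, 4494, 5723 and 5094 CPM and S phase sums 1720, 1830, 1463 and 1359 CPM. These cells were chosen for holding G2/M genes, so their G2/M level is set in part by that choice. Pooled over all 8 libraries, microglia markers summed to 12786 CPM in cells with 3 G2/M genes against 18196 in the others. Monocyte/macrophage markers summed to 512 against 162 CPM. That pool mixes times and hemispheres. At 48 h alone, microglia markers read 13713, 11603, 13970 and 11016 CPM in cells with 3 G2/M genes. In the other cells they read 21758, 12948, 17070 and 10876. Monocyte/macrophage markers read 299, 624, 519 and 731 CPM against 96.5, 428, 192 and 496.

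Genes of the same steps outside the 44 moved with them in microglia-like cells. Of 52 other mitosis genes, 50 rose with time (median log2 3.32; 7.41% of all genes rose), with the smallest p in the cytokinesis regulator Racgap1 (3.71 ± 0.15), Cenpw (3.34 ± 0.14) and Spc25 of the kinetochore (2.89 ± 0.13). Of 36 other replication genes, 35 rose (median 1.01), with the smallest p among others in the histone chaperone Asf1b (2.34 ± 0.15) and geminin, Gmnn (1.72 ± 0.12). By hemisphere 43 of 52 and 32 of 36 were higher ipsilaterally (21.9% of all genes were), with Ckap2l at 1.62 ± 0.15 and the licensing factor Cdt1 at 1.05 ± 0.11. None of either list was lower.

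The G1 and inhibitor genes were mixed. With time 12 of 22 G1 genes rose and 2 fell (7.41% and 6.24% of all genes), including Foxm1 (3.65 ± 0.22), a driver of mitosis genes, E2f2 (1.71 ± 0.17) and Rbl1 (1.18 ± 0.10), while Myc (-0.53 ± 0.10) and the cyclin D1 gene Ccnd1 (-0.40 ± 0.09) fell. Foxm1 went from 0.701 to 0.856 CPM at 24 h to 6.37, 13.9, 7.71 and 15.9 at 48 h. By hemisphere 12 of 22 were higher, among them the cyclin E1 gene Ccne1 (1.84 ± 0.29), Tfdp1 (0.83 ± 0.10) and Cdk4 (0.52 ± 0.09), and 4 were lower, among them Rbl2 (-0.72 ± 0.10), Myc (-0.49 ± 0.10) and Rb1 (-0.29 ± 0.07). Of 15 CDK inhibitor and p53 target genes, 7 were higher ipsilaterally and 2 lower. Of all genes 21.9% were higher and 21.3% lower, so the lower counts in both lists were not above that share. Cdkn1a, the p21 inhibitor and a p53 target, read 63.9, 358, 104 and 432 CPM at 24 h and 91.8, 367, 133 and 486 at 48 h (hemisphere log2 2.22 ± 0.11, edgeR adjusted p = 9.01e-06), and its ipsilateral and contralateral libraries did not overlap. It did not pass by time (0.21 ± 0.11, adjusted p = 0.224). Gadd45b (1.41 ± 0.15) and Mdm2 (0.83 ± 0.07) were also higher, and the inhibitor genes Cdkn1c (-0.89 ± 0.14) and Cdkn1b (-0.55 ± 0.07) lower. With time, 4 of these 15 rose, with the smallest p in Cdkn2a (2.14 ± 0.25), Cdkn2d (1.01 ± 0.12) and Gadd45a (0.67 ± 0.16), and Cdkn1c (-0.60 ± 0.14) and Btg1 (-0.30 ± 0.08) fell. Several of these calls by time were lost when single libraries were left out (edgeR adjusted p in brackets): Ccnd1 without any ipsilateral library (0.0543 to 0.0793), Cdkn1c without any contralateral one (0.0831 to 0.0925) and Gadd45a without any Prdx1-/- one (0.0583 to 0.0822). Btg1 kept its call only without the ipsilateral WT library of 48 h (0.0671 to 0.151 without each of the others).

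**Figure D5:**
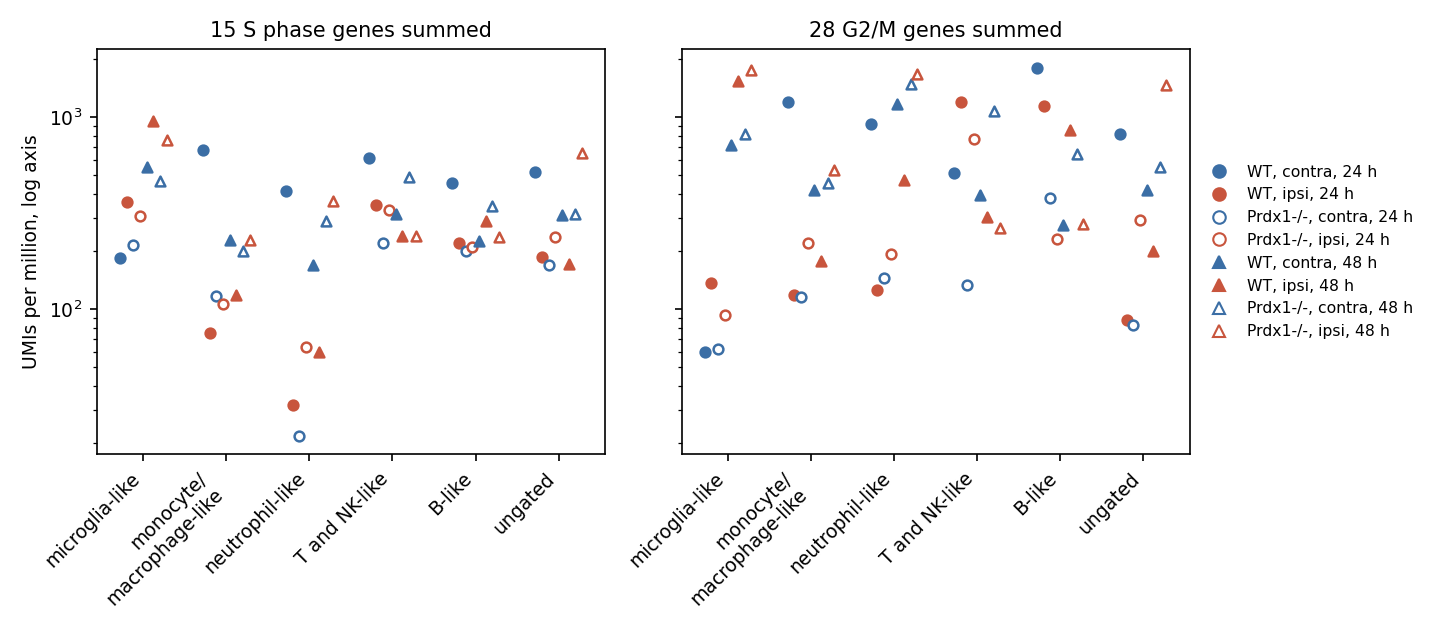
Summed level of the 15 S phase genes (left) and the 28 G2/M genes (right) in 5 gated classes and in ungated cells, as CPM on a log axis, with 1 point per library (symbols as in the plot of microglia-like levels). Microglia-like cells separate 24 h from 48 h in both panels; in the other classes the libraries overlap, and 1 contralateral WT library of 24 h stands high in monocyte/macrophage-like and neutrophil-like cells.

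In monocyte/macrophage-like cells, cells recruited from blood or close to them, the cell cycle genes showed no called difference. Their G2/M genes summed to 1197, 118, 116 and 221 CPM at 24 h and 416, 177, 454 and 530 at 48 h, and their S phase genes to 675, 75.3, 117 and 106, then 229, 119, 200.5 and 228. The highest library, contralateral WT at 24 h, held 80 such cells, and its G2/M share was 10.0% against 0.325 to 3.34% in the others. Of the 44 genes, 0 were called by hemisphere (1.83% of 11011 genes were), by time (0.863%), by genotype label (0.0%) or in either interaction (0.0% and 0.0%). The median log2 estimates by hemisphere were -1.32 for S phase and -1.43 for G2/M genes. The members with the smallest p by hemisphere were Mcm4 (-0.63 ± 0.28, adjusted p = 0.276), Mcm3 (-1.04 ± 0.52, 0.344) and Uhrf1 (-1.74 ± 0.88, 0.347), all edgeR. By time the medians were 0.16 and 0.44, and Kif23, Pcna and Cenpa had the smallest p. Outside the list, Mdm2 was higher ipsilaterally (0.82 ± 0.15) and the condensin gene Ncapg2 at 48 h (1.58 ± 0.18). Mdm2 kept its call only without the contralateral WT library of 48 h (edgeR adjusted p from 0.0539 to 0.155 without each of the others). Ncapg2 lost it without either Prdx1-/- library of 24 h, the ipsilateral WT library of 48 h or the contralateral Prdx1-/- library of 48 h (0.0613 to 0.0862).

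Within the ipsilateral hemisphere, where these cells are most numerous (617 to 2354 per library), the values were ordered. A fit of those 4 libraries alone called 22 of the 44 genes higher with the Prdx1-/- label (0.601% of all genes were called in either direction) and 13 higher at 48 h (1.66%). The time contrast within the ipsilateral side from the fit of all 8 libraries called 0 of the 44 (0.0999% of all genes), with 0 S phase and 0 G2/M genes at an unadjusted p under 0.05. By label these were 3 S phase genes, 18 G2/M genes and Stmn1 (2.19 ± 0.17, edgeR adjusted p = 0.004). Top2a read 2.16 CPM in WT and 11.97 in Prdx1-/- at 24 h, and 5.40 and 45.2 at 48 h (2.83 ± 0.18, edgeR adjusted p = 0.00234). Each Prdx1-/- library lay above its WT partner in that gene. At 24 h both labels contain Prdx1 reads, as given above. The hemisphere by genotype label term had an unadjusted p under 0.05 in 8 S phase genes, 15 G2/M genes and Stmn1, with an adjusted p of 1.0 in Tyms (2.98 ± 0.68), Aurkb (3.21 ± 0.76) and Prc1 (3.33 ± 0.82), edgeR. Without the contralateral WT library of 48 h, 36 members passed that term (1.8% of all genes), and without the contralateral WT library of 24 h, 2 did (0.026%). DESeq2 called 9 (0.282%). Without the contralateral Prdx1-/- library of 24 h, 5 members passed the hemisphere by time term (0.489%), and without the contralateral WT library of 24 h, 3 were called by time (1.96%).

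The 109 monocyte/macrophage-like cells with 3 G2/M genes had a median of 33177 UMIs against 15288 in the others. Genes of granulocyte precursors (a list written after these cells were seen) summed to 7370 CPM in them against 123 in the others, and neutrophil markers to 10473 against 2204. Mpo, myeloperoxidase, read 470.0 CPM in the contralateral WT library of 24 h, 126 in the ipsilateral Prdx1-/- library of 48 h and at most 28.9 in the rest. The part of such cells in the values above was not tested. Cenpa (27.1 to 94.1 CPM) and Cks2 (29.6 to 149 CPM) stayed up in all 8 libraries, also where Top2a was at 2.16 CPM. Cks1b ranged from 10.2 to 75.7 CPM.

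Neutrophil-like cells had G2/M sums of 916, 125, 145 and 195 CPM at 24 h and 1167, 469, 1479 and 1670 at 48 h, with S phase sums of 413, 31.5, 21.8 and 63.6, then 170, 59.8, 286 and 367. Mature neutrophils do not divide. Of the 44 genes, 0 were called by hemisphere (0.0432% of 9253 genes were), time (0.054%) or genotype label (0.0%). Cks2 had the smallest p by time and read 129, 83.7, 72.7 and 114 CPM, then 284, 303, 269 and 266 (1.25 ± 0.25, edgeR adjusted p = 0.152), with no overlap between the times. Aurka, the spindle pole kinase, had 1.76 ± 0.55 (adjusted p = 0.347) and Kif23 0.57 ± 0.25 (adjusted p = 0.47). Shares with 3 G2/M genes ran from 0.207 to 7.52%. In the contralateral Prdx1-/- library of 24 h 0 of 41 cells qualified, which allows a share of up to 7.32%. The 159 cells with 3 G2/M genes had a median of 28503 UMIs against 4840 in the others, and 83825 against 11998 CPM of granulocyte precursor genes. Of these cells, 118 came from the ipsilateral Prdx1-/- library of 48 h, where the precursor genes read 84585 against 25760 CPM. Precursor genes were higher in such cells in each library that had any, except the ipsilateral WT library of 24 h. There they read 403 CPM in 2 cells against 810 in the others. Top2a stood at 93.7, 0.739, 0.0 and 3.71 CPM at 24 h and 69.3, 10.7, 128 and 144 at 48 h. Without the contralateral WT library of 24 h, 21 members were called higher at 48 h (4.79% of all genes in either direction), and without the ipsilateral Prdx1-/- library of 48 h, 30 were called lower ipsilaterally (11.2%).

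T and NK-like cells numbered 40 to 142 per library, and 33 of the 44 genes could be tested. By hemisphere 1 was called (1.39% of 6787 genes were), Cenpa, the centromere histone, with 53.4, 123, 61.1 and 139 CPM at 24 h and 64.1, 149.8, 71.9 and 93.2 at 48 h. Every ipsilateral library was above every contralateral one (log2 0.99 ± 0.19, edgeR adjusted p = 0.0114). Over the other settings its adjusted p ran from 7.8e-05 to 0.176. The call was lost without the ipsilateral Prdx1-/- library of 24 h (0.0904), the ipsilateral WT library of 48 h (0.115) or the contralateral Prdx1-/- library of 48 h (0.0691). Without the contralateral Prdx1-/- library of 24 h, 3 members were called (1.43% of all genes). Cks2 (0.75 ± 0.24, adjusted p = 0.162) was also higher without overlap, and Mcm3 (-1.27 ± 0.33, adjusted p = 0.0636) lower without overlap, in edgeR. By time (0.0884% of all genes) and genotype label (0.0295%) 0 members were called. G2/M sums were 509, 1205, 134 and 772 CPM at 24 h and 392, 301, 1074 and 265 at 48 h, in no common order. The 770 B-like cells had 10 to 296 cells a library, too few for a fit, with G2/M sums of 1809, 1147, 378 and 232 CPM, then 276, 853, 639 and 277. Ungated cells summed to 815, 88.1, 82.2 and 290 CPM, then 417, 201, 550 and 1467.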

How the data were processed

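The deposited tables hold raw UMI counts per gene and cell, made with the 10x 3′ V2 chemistry per the labels' protocols. The submitters' processing notes name Cell Ranger, Seurat and mm10 but no version, and the authors' settings are not given in the sources used here. Of 39945 deposited barcodes, 39608 were used, those with 200 genes or more and no more than 10% of UMIs from mitochondrial genes, and 219 of the 20340 genes had no count. Libraries shared 3 to 17 barcodes per pair, at most 0.357% of the smaller one.

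Each marker's log-normalized value (per 10000 UMIs) was divided by its 95th percentile among cells with a UMI and limited to 1, and a class score is the mean over its markers. A cell took a class with at least 3 markers detected and a score 1.5 times the next, which left 35913 cells gated. No doublet caller was run; cells with mixed markers stayed ungated, and an alternative drops the top 5% of cells by UMIs. Counts were summed per library and class (at least 20 cells in every library) and fitted over all genes with edgeR 4.0.16 in R 4.3.3 (TMM, filterByExpr, robust quasi-likelihood), with hemisphere, genotype label and time as additive terms, since each combination has 1 library. P-values therefore measure the spread between libraries, which may be technical. An interaction was added for the terms that cross 2 factors. Levels in CPM are shares of the UMIs of the class in that library, per 1000000, without TMM scaling. Shares used cells thinned to 3000 UMIs, exact permutation tests over libraries and exact (Clopper-Pearson) 95% intervals; a count of 0 allows up to 3 counts. DESeq2 1.42.0 was an alternative, beside other normalization, filters, gates, thinning and left-out libraries. The fits were tested on simulated data.

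The 44 members, the lists, the gate and the tests were chosen with earlier results of these data known. Granulocyte precursor genes were listed, and the neutrophil-like and T and NK-like alternatives and the fits within a side or a time added, after the data were seen. Named genes are, per class and contrast, called members with the largest mean CPM (up to 4 S phase and 8 G2/M), the largest and smallest fold, Stmn1, the 3 smallest p where fewer than 3 were called, and up to 3 called genes each way from every other list; further genes were chosen after their values were seen. A gene that this rule names is not reported here.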

Additional observations from a re-analysis of the deposited data

Results flagged for a closer look

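Summed levels stood apart from the other 3 libraries of their group in 6 of 48 groups of 4 examined. The groups reuse the same 8 libraries and mix the levels of the other factors, so no chance rate is set against that count. The contralateral WT library of 24 h stood apart from the other 24 h libraries in monocyte/macrophage-like cells, with 675 CPM of S phase and 1197 CPM of G2/M genes, and in neutrophil-like cells, with 413 and 916 CPM. It holds 80 and 97 cells of these classes, and its monocyte/macrophage-like cells read 470.0 CPM of Mpo; the part of either in the levels was not tested. The ipsilateral Prdx1-/- library of 48 h stood apart from the other ipsilateral libraries in neutrophil-like cells (367 CPM of S phase genes), and the contralateral Prdx1-/- library of 48 h from the other 48 h libraries in T and NK-like cells (1074 CPM of G2/M genes). In microglia-like cells the hemisphere difference of Kif23 differed between times, by 2.07 on the log2 scale in edgeR's interaction test.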

How the results depend on the processing

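Libraries without replicates and few cells outside the microglia-like class limit all counts. In microglia-like cells, members called by hemisphere numbered 28 to 35 without 1 library each (37 with all), 24 at a 5% mitochondrial limit and 18 in the 24 h libraries alone. Called by time were 35 to 43 (44). By genotype label there were 0 to 1 (0), 1 with DESeq2, 8 in the 48 h and 3 in the ipsilateral libraries alone. The hemisphere by time term gave 0 to 6 (1), 2 without a filter on low counts and 0 at the 5% limit, and hemisphere by genotype label 0 to 2 (0). In monocyte/macrophage-like cells, time gave 0 to 3 (0), 4 without the top 5% of cells and 13 ipsilaterally, genotype label 22 ipsilaterally, hemisphere by time 0 to 5 (0) and hemisphere by genotype label 0 to 36 (0) and 9 with DESeq2. In neutrophil-like cells, hemisphere gave 0 to 30 (0), time 0 to 21 (0), 1 with DESeq2, 1 without the filter, 15 without the top 5% and 16 ipsilaterally, and genotype label 5 without the top 5% and 2 ipsilaterally. In T and NK-like cells, hemisphere gave 0 to 3 (1), 3 without the filter, 2 without the top 5%, 0 at the 5% limit and 8 at 48 h alone, time 12 ipsilaterally and genotype label 4 at 48 h alone. The share of all genes called moved with the setting too. In neutrophil-like cells by hemisphere it was 0.0432% with all libraries and 11.2% without the ipsilateral Prdx1-/- library of 48 h. That share is not given for most settings here, so these counts alone show nothing particular to the members. The cause was not tested.

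Differences in shares of cells, in percentage points, changed sign in these settings, and none passed its test after adjustment. For genotype label in microglia-like cells, G2/M (0.056) ran from -4.62 to 4.47 without 1 library, with -0.41 for at least 2 members and -0.25 unthinned, and S phase (-2.59) from -6.41 to 2.32, with 1.93 unthinned. In monocyte/macrophage-like cells, time ran from -1.41 to 1.81 for G2/M (-0.53), with 0.97 in the stricter gate, and from -1.03 to 1.36 for S phase (-0.38), with 1.58 unthinned and 0.97 in the stricter gate. Genotype label ran from -3.01 to 0.21 for G2/M (-1.90), with 0.99 unthinned, and from -2.26 to 0.13 for S phase (-1.43), with 0.094 unthinned. In neutrophil-like cells, genotype label ran from -0.77 to 1.83 for G2/M (0.63), with -1.47 for at least 2 members, and from -0.10 to 1.46 for S phase (0.47). In T and NK-like cells, G2/M by hemisphere (1.82) read -0.0375 for at least 5 members and by time (-1.30) 0.68 for at least 2. By genotype label it ran from -1.26 to 0.47 (-0.45), with 0.87 for at least 2 and 0.007 unthinned. S phase by hemisphere ran from -1.10 to 0.61 (-0.46), with 3.39 for at least 2 and 3.30 unthinned, and by genotype label from -0.90 to 0.91 (0.22), with -4.25 for at least 2, -1.77 unthinned and -0.85 in the stricter gate.

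Of single genes, 35 of the values under other settings changed sign, none called, 91 lost and 35 gained a call, and 1837 kept direction and side. Those that changed sign follow, on the log2 scale. In microglia-like cells the hemisphere by genotype label term of Cdk1 read 0.0293 without the top 5%, and that of Stmn1 0.29 there, 0.22 at the 5% limit and -0.71 to 0.33 without 1 library. In monocyte/macrophage-like cells, Stmn1 by hemisphere read 0.81 and Kif23 by time -0.0256 without the top 5%. By genotype label at 24 h alone, Kif22 read -0.47, Prc1 -0.23 and Stmn1 -0.71. Pcna by genotype label read 0.0516 ipsilaterally and -0.37 to 0.0322 without 1 library. Without 1 library Stmn1 ran from -0.53 to 1.69 by time, -0.78 to 1.07 by genotype label and -1.38 to 3.48 for hemisphere by time. In neutrophil-like cells without the top 5%, Aurka (0.47), Rrm1 (0.46) and Stmn1 (1.40) changed sign by hemisphere, and Stmn1 by genotype label read -0.0054 with DESeq2, -1.62 at 24 h alone and -0.86 to 1.53 without 1 library. In T and NK-like cells, Stmn1 by hemisphere read 0.0554 without the top 5% and 0.30 at 24 h alone, Ccnb1 by genotype label -0.45 ipsilaterally, and Stmn1 by genotype label -1.63 at 24 h alone and -0.73 to 0.83 without 1 library. A paired fit, with genotype label and time as a block that pairs the hemispheres, again gave 37 members in microglia-like cells and changed no call. The replicate numbers themselves pair no libraries.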
